A study of Mus musculus with 8 samples.

Results

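Deletion of Ezh2 in leukaemia cells that lack Ezh1 was examined by comparing 2 Ezh1-null tamoxifen libraries with 2 Ezh1-null oil libraries, which are 4 of the 8 RNA sequencing libraries of the series. The members were taken by their labels: genotype Ezh1-/- Ezh2+/+ after corn oil, and Ezh1-/- Ezh2-/- after tamoxifen. The design text describes the Ezh2 alleles of the oil cells as flox/flox and the cells as c-kit+ acute myeloid leukaemia (AML), where c-kit is a growth factor receptor of blood stem and progenitor cells. All mice were C57BL/6, cells came from the marrow of femur and tibia, and every library title begins with Moz, a name that the labels do not explain. Treated mice had 5 intraperitoneal doses of tamoxifen (10 mg/kg/day, dissolved in corn oil), and each label places the sample 7 days after treatment. The other 4 libraries (Ezh1+/+ Ezh2+/+ after oil and Ezh1+/+ Ezh2-/- after tamoxifen, called Ezh1-present here) share the spread estimate and serve for 1 comparison at the end. The Cre driver, the age of the mice and whether replicates were separate animals or leukaemias are details not stated in the labels, so p-values measure only the spread between these libraries, which may be technical. Because every deleted library also had tamoxifen, effects of the drug and of the deletion cannot be told apart.

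Ezh1 and Ezh2 are the alternative catalytic subunits of Polycomb repressive complex 2 (PRC2), which methylates a histone tail and keeps genes silent. Polycomb repressive complex 1 (PRC1) binds that mark and ubiquitinates another histone. Well-known targets are the Ink4 inhibitors of cyclin-dependent kinases, the Hox clusters and other regulators of embryonic development, and many of their promoters are rich in CpG. Without both enzymes the histone mark has no known writer.

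The deposited values are log2 normalized counts centred on each gene's median over the 8 libraries, so values below are levels relative to that median, and a difference of 1 is a doubling. A normalized count below 1 had been set to 1, which is called the floor. Of 31574 rows, 18051 had at least 2 libraries above the floor and were tested with limma over all 8 libraries, with called meaning a Benjamini-Hochberg adjusted p below 0.05. Between 16393 and 17007 rows lay above the floor in the Ezh1-null libraries, with fewer in oil (16393 and 16441) than after tamoxifen (16980 and 17007). The floor was seen only where at least 2 libraries tied, so a library alone at its floor counts as above it here. The smallest common normalized count, called a step, was larger in oil (2.48 and 2.29) than after tamoxifen (2.13 and 2.18), so low genes were measured more coarsely in oil. The part of this depth gap in rises from the floor was not tested. Of the low values, 59.5% and 63.3% in oil and 64.3% and 65.5% after tamoxifen were whole numbers of steps. Some others lay at 0.5 of a step, so a step is not the smallest value seen. Of the 18051 rows, 614 (3.4%) were called: 560 higher (3.1%) and 54 lower (0.299%). The shares called higher and lower are the background for every count of list members called below. The groups did not overlap in 49.2% of rows, 24.5% with both tamoxifen values higher and 24.8% with both lower. The median change of the 560 higher genes was 1.95, with 488 at least 2-fold and 130 at least 8-fold, and that of the 54 lower genes was -1.15, with 32 at least 2-fold. Higher calls made up 91.2% of all calls, and 74.8% after quantile normalization (342 higher and 115 lower). Libraries tied at the floor add no spread. In rows made mostly of them, a call kept without 1 library is no sign of stability. Cdh9, Gpr112, Kcnv2, Tmem169 and Tmem63c, each with 6 libraries at the floor, were kept in every such fit. Of the 614 calls, 101 (88 higher and 13 lower) were kept in every fit that left out 1 library. The count was lowest, 176, without Ezh1-null tamoxifen replicate 2, with 213 when replicate 1 was left out, 368 for the first and 286 for the second oil replicate, and 393 without either Ezh1-present oil library.

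**Figure D1:**
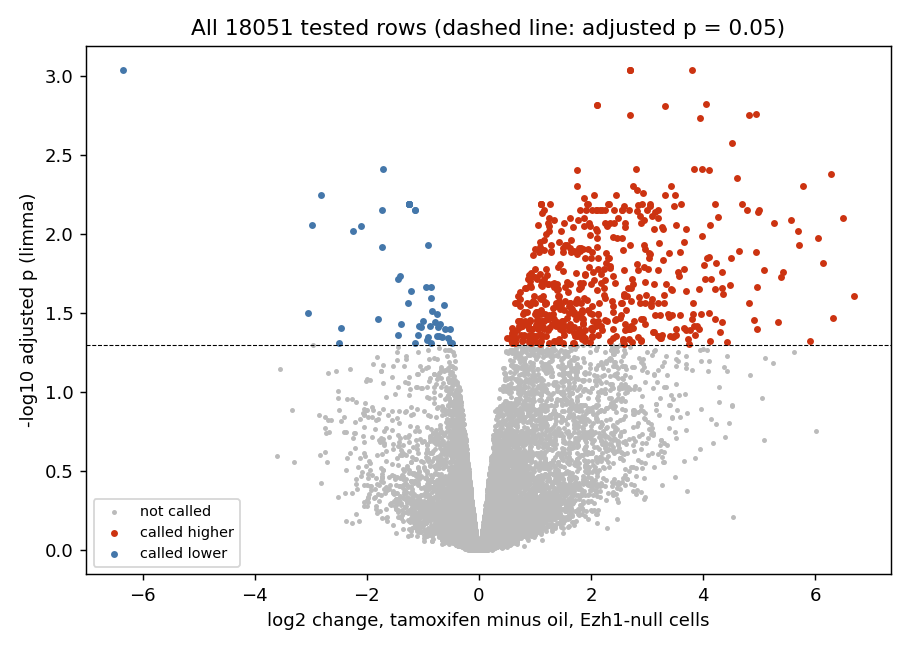
Log2 change, tamoxifen minus oil in Ezh1-null cells (x axis), against -log10 of the limma adjusted p (y axis) for all 18051 rows, 2 libraries per group. Called genes lie above the dashed line at adjusted p = 0.05, with 560 on the right in red and 54 on the left in blue.

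The targeted genes come first. Ezh2 lay at -0.12 and -0.03 in the oil libraries and at -0.53 and -0.56 after tamoxifen, so the groups did not overlap, but the change of -0.47 ± 0.08 (SE) had an adjusted p of 0.0554 and was not called. Ezh1 lay at -1.75 and -1.94 in oil and at -1.61 and -1.55 after tamoxifen (adjusted p = 0.274), low in all 4 libraries. Gene-level values do not separate the deleted exons of Ezh2 from the rest of its transcript. In bulk RNA, fewer cells that carry a transcript and less of it per cell cannot be told apart.

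Of 12 PRC2 subunit genes, 0 were called by limma (4 had an unadjusted p under 0.05). Their changes ran from -0.47 for Ezh2 to 0.71, with a median of -0.10. The scaffold Eed lay at -0.14 and -0.06 in oil and at -0.06 and -0.19 after tamoxifen, and the subunit Suz12 at -0.41 and -0.25 against -0.59 and -0.50. Of 20 PRC1 subunits 1 was called: Bmi1, a PRC1 subunit needed for self-renewal of blood stem cells, stood at -0.42 and -0.41 in oil and at 0.75 and 0.91 after tamoxifen, a 2.37-fold rise (1.25 ± 0.11, adjusted p = 0.00889). Its adjusted p was 0.0557 without Ezh1-null tamoxifen replicate 2. The PRC1 ubiquitin ligases did not change beyond the threshold, with Rnf2 at 0.30 ± 0.11 (adjusted p = 0.259) and Ring1 at -0.20 ± 0.09 (adjusted p = 0.347). None of 6 genes for the demethylases Kdm6a and Kdm6b and the Asxl-Bap1 deubiquitinase was called by limma, and all 6 changes lay below 0. None of 12 DNA methylation genes was called either, and the nearest to the threshold was Uhrf1, which guides maintenance methylation (-0.43 ± 0.09, adjusted p = 0.0706).

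The Ink4 locus on mm10 chromosome 4 holds Cdkn2a (gene 12578, 89274473 to 89294619), which encodes the CDK inhibitor Ink4a and, from an upstream start, the p53 activator Arf, and Cdkn2b (gene 12579, 89306289 to 89311032), which encodes the CDK inhibitor Ink4b. RefSeq promoter windows (GRCm38.p6, minus strand, 250 bases before to 50 after the start) are shown because both genes rose, with each CpG in capitals. The upstream Cdkn2a window (chr4:89294570-89294869) held 45 CpG, more than 98.1% of the 32851 windows in the table, against a median of 7 over all windows. The downstream Cdkn2a window (chr4:89282143-89282442) held 12 and the Cdkn2b window (chr4:89310983-89311282) 18.
Cdkn2a, upstream start: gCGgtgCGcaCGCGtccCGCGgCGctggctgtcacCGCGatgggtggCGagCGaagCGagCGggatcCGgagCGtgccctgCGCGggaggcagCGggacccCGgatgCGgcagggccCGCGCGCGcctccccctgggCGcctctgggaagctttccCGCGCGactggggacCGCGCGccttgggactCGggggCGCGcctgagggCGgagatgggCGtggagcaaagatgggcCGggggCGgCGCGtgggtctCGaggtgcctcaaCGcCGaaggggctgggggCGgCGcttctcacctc
Cdkn2a, downstream start: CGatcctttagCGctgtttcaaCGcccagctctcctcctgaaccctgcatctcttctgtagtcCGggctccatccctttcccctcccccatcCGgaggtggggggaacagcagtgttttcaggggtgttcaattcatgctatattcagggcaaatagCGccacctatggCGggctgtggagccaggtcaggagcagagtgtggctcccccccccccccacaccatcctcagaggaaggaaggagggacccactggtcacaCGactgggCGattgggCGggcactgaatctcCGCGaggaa
Cdkn2b: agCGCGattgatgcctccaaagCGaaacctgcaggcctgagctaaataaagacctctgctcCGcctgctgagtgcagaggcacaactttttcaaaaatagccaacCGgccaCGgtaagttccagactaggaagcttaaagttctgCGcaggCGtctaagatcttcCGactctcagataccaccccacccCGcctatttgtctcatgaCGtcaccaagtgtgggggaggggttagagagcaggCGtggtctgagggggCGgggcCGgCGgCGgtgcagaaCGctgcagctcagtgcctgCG

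Of 7 CDK inhibitor genes 2 were called higher (3.1% of all rows). Cdkn2a lay at -1.19 and -1.44 in oil and at 3.10 and 3.29 after tamoxifen, a gap over 4 on the log2 scale that no library bridged, with an adjusted p of 0.00264 that stayed at or under 0.0233 without any 1 library. The values are summed over the gene and do not tell Ink4a from Arf transcripts. Cdkn2b lay at -0.64 and -1.95 in oil and at 1.96 and 2.99 after tamoxifen (3.77 ± 0.59, adjusted p = 0.0406, and as high as 0.164 without 1 library). Its first oil library lay 1.00 step above the second, the spacing of a single step above the floor, so the size of this rise is not fixed by the data, and the tamoxifen mean lay 1.59 above 3 steps in each oil library. Cdkn1a, the p53 target p21, was just outside the threshold at -0.65 and -0.86 against 0.09 and 0.37 (0.98 ± 0.17, adjusted p = 0.053), as was Cdkn1c, an imprinted inhibitor, at -0.20 and -0.46 against 0.84 and 0.53 (1.01 ± 0.19, adjusted p = 0.0618). Cdkn1b, Cdkn2c and Cdkn2d had changes of -0.44, -0.35 and -0.05 and did not pass.

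Among 19 G1 cyclins, kinases and E2F-Rb genes, Ccnd1, a member of the D-type cyclins, which Ink4 proteins oppose, was the call. It stood at -0.36 and -0.39 in oil and at 1.51 and 1.80 after tamoxifen (2.02 ± 0.27, adjusted p = 0.0284), with an adjusted p up to 0.135 without 1 library. The other D-type cyclins and the kinase Cdk4 had smaller values that did not pass: Ccnd2 at 1.34 ± 0.44 (adjusted p = 0.202), Ccnd3 at -0.09 ± 0.15 and Cdk4 at -0.18 ± 0.13.

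**Figure D2:**
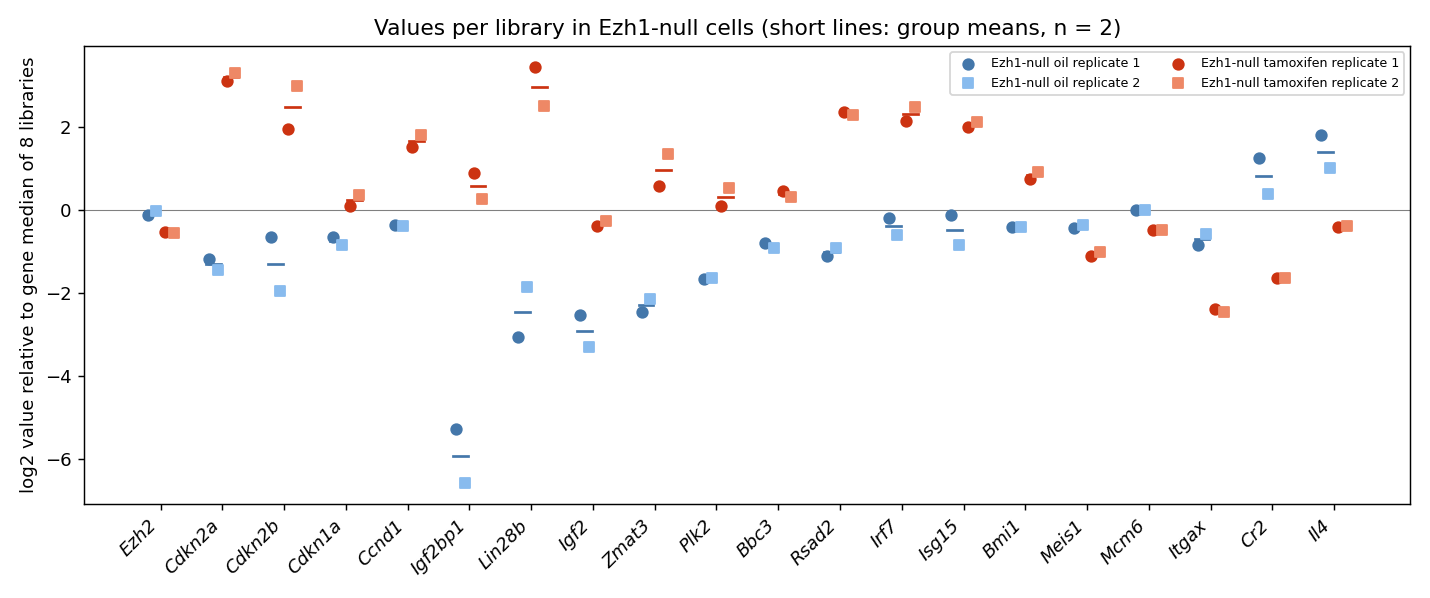
Log2 value relative to the gene median of 8 libraries (y axis) for 20 genes in the 4 Ezh1-null libraries, with oil in blue, tamoxifen in red and short lines at group means of 2 libraries. Cdkn2a moved from -1.19 and -1.44 to 3.10 and 3.29, while Ezh2 moved from -0.12 and -0.03 to -0.53 and -0.56 and was not called.

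Fetal and imprinted growth genes were split. Igf2bp1, an RNA-binding protein of fetal stem cells, lay at -5.27 and -6.58 in oil and at 0.88 and 0.25 after tamoxifen (6.50 ± 0.51, adjusted p = 0.00792, highest 0.0476 without 1 library). Lin28b, which blocks maturation of let-7 microRNAs in fetal cells, lay at -3.06 and -1.86 against 3.45 and 2.49 (5.43 ± 0.59, adjusted p = 0.0173). For both, 1 oil library lay at or was inferred to lie at the floor and the other stood 1.00 step above it, and the tamoxifen means lay 4.31 and 3.19 above 3 steps in each oil library. Igf2, an imprinted growth factor, stood at -2.54 and -3.30 against -0.39 and -0.28 (2.59 ± 0.33, adjusted p = 0.0247). The remaining 7 of 10 fetal programme genes did not pass. Hmga2, a target of let-7, had 2.57 and 1.95 in oil and -0.87 and 1.32 after tamoxifen (adjusted p = 0.255), so it did not move with Lin28b, and its tamoxifen libraries were far apart. Of 24 imprinted genes, 2 were called higher (3.1% of all rows): Igf2 and Plagl1, a transcription factor of the imprinted growth network (-0.68 and -0.57 against 0.77 and 1.69, 1.86 ± 0.30, adjusted p = 0.044). H19, the imprinted neighbour of Igf2, had 2.42 ± 0.78 and did not pass (adjusted p = 0.199). Without 1 library the fetal calls numbered 1 to 3 and the imprinted calls 0 or 1.

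Hox genes pattern the body axis. In the Hoxc cluster on chromosome 15, Hoxc4 lay at the floor in both oil libraries and 5.00 and 6.13 above it after tamoxifen, at least 6.63-fold higher against 3 steps in each oil library (adjusted p = 0.00811). Hoxc9 lay 3.80 and 4.44 above the floor (at least 2.44-fold, adjusted p = 0.00872) and Hoxc5 4.09 and 4.12 (at least 2.41-fold, adjusted p = 0.014), again from the floor in both oil libraries. Hoxc6, which lies between them, had -0.15 and -1.46 in oil and -0.37 and 2.22 after tamoxifen, with overlapping groups (adjusted p = 0.444). Of 18 Hoxc and Hoxd genes, 5 were at the floor in every library and 9 were tested, of which these 3 were called. Of 9 tested Hoxb genes, Hoxb13 was called (-4.90 and -3.70 against -0.08 and -0.88, adjusted p = 0.0273), with 1 oil library inferred at the floor and a tamoxifen mean 1.59 above 3 steps. The list of the Hoxa cluster with Meis and Pbx genes, which drive many leukaemias, had 1 call of 17 and no called Hoxa gene. Meis1, a homeobox cofactor of Hoxa9, fell from -0.44 and -0.37 to -1.10 and -1.01 (-0.65 ± 0.11, adjusted p = 0.045, called in none of the 8 fits without 1 library). Hoxa9 itself stood at 0.33 and 0.06 against -0.28 and -0.35 (adjusted p = 0.177), Hoxa10 at -0.17 ± 0.16, and the partner Pbx3 at 1.29 ± 0.24 (adjusted p = 0.0589).

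Of 158 developmental transcription factors in the table beyond the Hox genes, 22 lay at the floor in every library. Of the 109 tested, 14 rose and 0 fell (3.1% and 0.299% of all rows). Among them were Zic1, Nkx6-2, Tbx15, Nkx6-1, Sall3, Otx2, Foxc1, Zic2, Shox2, Dlx4, Lhx2, Tfap2c and Tbx18. The median change was 0.96, against 0 over all rows tested, and 0.01 with members at the floor held at their lower limit, since 45 of the 109 lay at the floor in both oil libraries and 11 did so after tamoxifen. Zic1, a zinc finger regulator of the neural crest, came from the floor to 6.31 and 6.33 above it (at least 11.1-fold, adjusted p = 0.034). Nkx6-2, a homeobox factor of the ventral spinal cord, lay at -5.25 and -6.68 in oil and at -0.86 and -1.18 after tamoxifen (4.95 ± 0.49, adjusted p = 0.0129). Tbx15, a T-box factor of limb and skin, lay at -3.43 and -2.24 against 1.49 and 2.12 (adjusted p = 0.0129), and Nkx6-1, a factor of motor neurons and beta cells, at -3.02 and -4.33 against 1.53 and -0.02 (adjusted p = 0.0482). For Tbx15 and Nkx6-1, 1 oil library was inferred at the floor and the other stood 1.00 step above it. Otx2, a head and eye regulator, was at the floor in all but the Ezh1-null tamoxifen libraries, which stood 3.55 and 4.12 above it (adjusted p = 0.00387). When either Ezh1-null tamoxifen library was left out, only Tfap2c and Otx2 stayed called. Both have 6 of 8 libraries at the floor, which holds the spread down, so this is no sign of stability. Of 30 germ line and meiosis genes 1 was called: Dmrt1, a sex-determination factor of the testis, lay 1.00 step above the floor in the first oil library, at the floor in the second, and at 5.22 and 5.87 after tamoxifen (adjusted p = 0.0106, 0.0708 at most without 1 library).

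The RefSeq promoter window of Sfrp2 (plus strand, chr3:83766071-83766370) is shown for the Wnt antagonist with the largest rise in its list, again with CpG in capitals (22 of them).
Sfrp2: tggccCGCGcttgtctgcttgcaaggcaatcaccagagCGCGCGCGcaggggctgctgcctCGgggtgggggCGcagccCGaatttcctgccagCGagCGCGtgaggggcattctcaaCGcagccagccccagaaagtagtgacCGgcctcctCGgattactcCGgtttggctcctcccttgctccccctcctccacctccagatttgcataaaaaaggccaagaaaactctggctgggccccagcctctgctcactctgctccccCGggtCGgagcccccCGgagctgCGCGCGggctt
Sfrp2, which encodes a secreted protein that binds Wnt ligands, lay at the floor in both oil libraries and 6.16 and 6.39 above it after tamoxifen, at least 10.8-fold higher (adjusted p = 0.00415, at most 0.0343 without 1 library). The Wnt receptor Fzd2 stood at -2.77 and -2.88 against -0.36 and -0.71 (2.29 ± 0.19, adjusted p = 0.00881). The R-spondin receptor Lgr4 stood at -0.65 and -0.85 against 0.41 and 0.50 (1.20 ± 0.11), and Fzd10 at -1.61 and -1.33 against -0.28 and -0.46 (1.10 ± 0.14). Of 40 Wnt genes 30 had a change above 0 (8742 of the 18051 rows), with a median of 0.61. In 23, both tamoxifen values lay above both oil values (24.5% of all rows). The 4 genes above were the only calls, all higher (3.1% of all rows). Without 1 library 2 to 4 of them were called.

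Of 66 genes for BMP, TGF-beta, FGF, Hedgehog and Notch ligands and receptors, 6 rose and 0 fell (3.1% and 0.299% of all rows). The median was 0.56 (0.31 with floor members at their limit). In 47 the change was above 0. The groups did not overlap upward in 29 and downward in 1 (24.5% and 24.8% of all rows). Bmpr1a, a BMP receptor, lay at -0.45 and -0.56 in oil and at 4.29 and 4.34 after tamoxifen (4.82 ± 0.63, adjusted p = 0.0273). Among ligands, Fgf15, an intestinal and embryonic FGF, was at the floor in both oil libraries and in all 4 Ezh1-present libraries, and lay 3.67 and 3.93 above it after tamoxifen (at least 1.95-fold, adjusted p = 0.000915). Its neighbour Fgf3 had 1 oil library at the floor and the other 2.00 steps above it, and lay at 3.90 and 5.18 after tamoxifen (adjusted p = 0.0472). Dll3, an atypical Notch ligand (at least 1.22-fold, adjusted p = 0.0417), and Gdf11, a TGF-beta family ligand (-1.48 and -1.80 against -0.32 and -0.21, adjusted p = 0.0472), were also called. So was Bmp1, a protease that activates ligands and procollagen, at -1.77 and -2.36 against -0.02 and -0.09 (adjusted p = 0.0143). Fgf15 alone of the 6 was called in every fit without 1 library. Since 6 of its 8 libraries tied at the floor, which holds the spread down, this is no sign of stability.

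Of 70 axon guidance genes, 7 were called, all higher (3.1% of all rows), and the list median was 0.41. Chn1, a Rac GTPase-activating protein of axon pathfinding, lay at the floor in oil and 5.83 and 5.74 above it after tamoxifen (at least 7.71-fold, adjusted p = 0.00497, highest 0.0352 without 1 library). The semaphorin receptors Plxna2 (-1.64 and -2.42 against 1.76 and 1.78) and Plxna1 (-1.40 and -1.44 against -0.29 and -0.05) rose by 3.80 ± 0.55 and 1.25 ± 0.11. Rgmb, a BMP co-receptor, Sema7a, a semaphorin, Epha8, an ephrin receptor, and Unc5b, a netrin receptor, were the other 4, at 1.15 to 3.23. Among 42 collagen genes 1 was called higher (3.1% of all rows). It was Col13a1, a membrane collagen, which went from the floor in oil to 3.82 and 4.12 above it (at least 2.2-fold, limma adjusted p = 0.00387). Fat1, a giant cadherin, rose from -1.25 and -1.43 to -0.03 and 0.03 (1.34 ± 0.11, adjusted p = 0.00811). Of 37 voltage-gated channel genes 3 were called, all higher (3.1% of all rows). They were the potassium channel Kcnh3 and the calcium channels Cacna1i and Cacna1a, at 0.90 to 3.76. None of them was kept in every fit without 1 library.

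**Figure D3:**
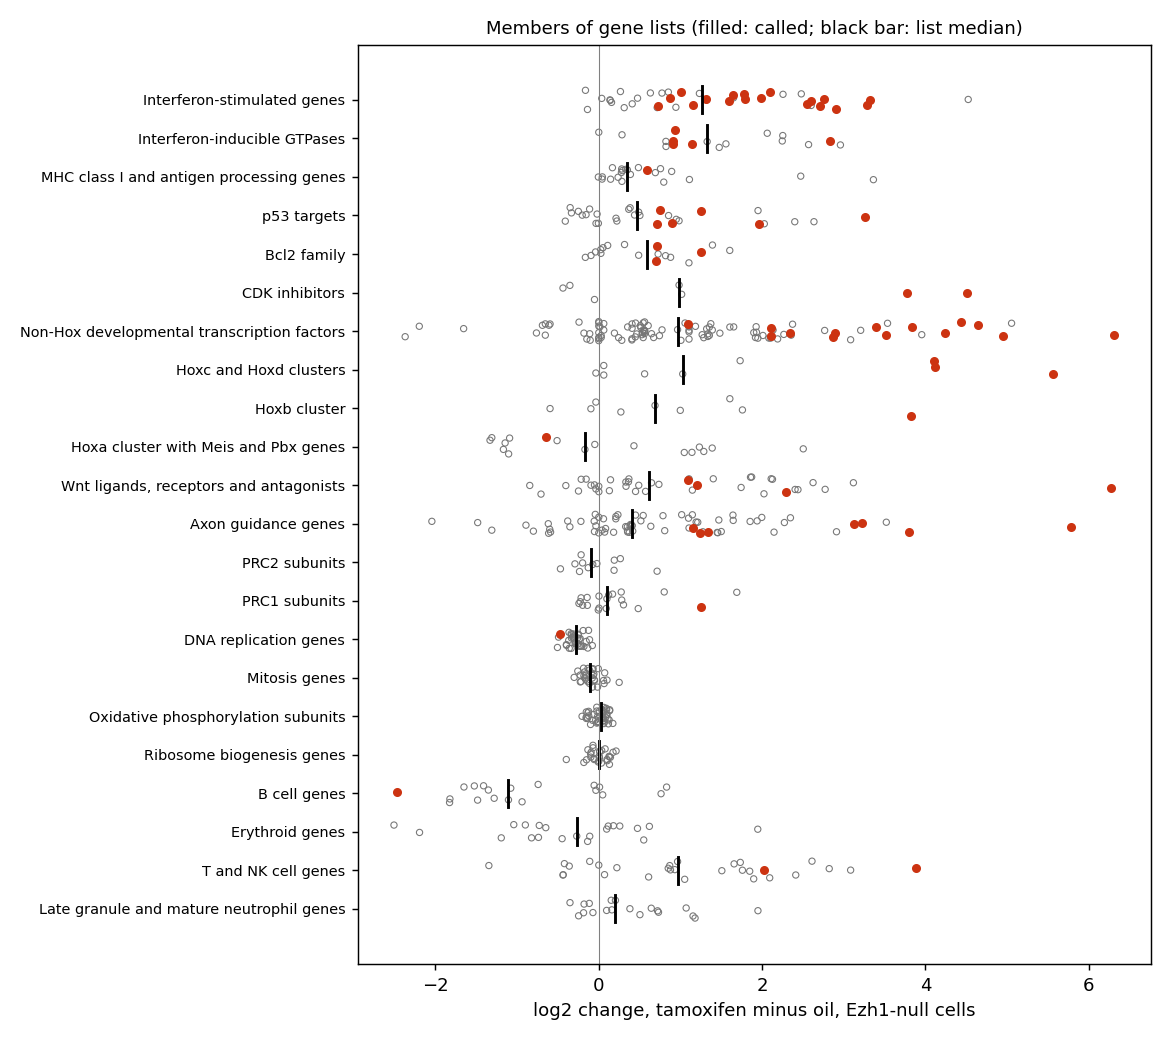
Log2 change, tamoxifen minus oil in Ezh1-null cells (x axis), for every tested member of 22 gene lists (rows), with called genes filled and list medians as black bars. Interferon-stimulated genes sit to the right with a median of 1.27 and 18 of 40 called, and DNA replication genes sit just left of 0 with a median of -0.28.

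Interferon-stimulated genes formed the largest block of rises among the lists: 18 of 40 were called higher and 0 lower, against 3.1% of all rows called higher. The groups did not overlap, tamoxifen above oil, in 36 of 40 (24.5% of all rows), and the median change was 1.27 (1.12 to 1.46 without any 1 Ezh1-null library). These genes are induced when type I interferon activates Stat and Irf transcription factors, which bind repeats of GAAA spaced by a pair of bases. The motif GAAANNGAAA, read on both strands with overlaps counted, occurs in 3.44% of the 32851 RefSeq promoter windows. Of the 18 called genes 12 matched the table and 8 of these held it. Since only 76% of tested rows matched, no share over all rows is compared. Stretches of 60 bases around the motif (in capitals, either strand) are shown for 5 of the 8 as examples, on chr12:26456528-26456587, chr19:34640770-34640829, chr4:156200852-156200911, chr5:120777690-120777749 and chr8:71537558-71537617.
Rsad2 (minus strand): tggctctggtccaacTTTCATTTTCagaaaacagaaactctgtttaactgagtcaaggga
Ifit1 (plus strand): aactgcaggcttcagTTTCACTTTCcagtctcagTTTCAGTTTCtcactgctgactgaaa
Isg15 (minus strand): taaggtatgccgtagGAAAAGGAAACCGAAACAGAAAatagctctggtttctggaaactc
Oas3 (minus strand): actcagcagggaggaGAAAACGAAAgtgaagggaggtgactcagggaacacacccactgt
Bst2 (minus strand): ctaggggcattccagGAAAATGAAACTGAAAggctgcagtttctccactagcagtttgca
A match describes these letters and is not evidence of binding.

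The effectors among them included Rsad2 (viperin, which blocks viral replication), at -1.10 and -0.91 in oil and 2.35 and 2.29 after tamoxifen (10.0-fold, adjusted p = 0.00563). Ifit1, which binds viral RNA caps, stood at -0.21 and -0.73 against 2.09 and 2.17 (6.05-fold, adjusted p = 0.0406), and Isg15, a ubiquitin-like modifier, at -0.13 and -0.85 against 1.99 and 2.12 (5.84-fold, adjusted p = 0.0273). In each of these genes both tamoxifen libraries lay far above both oil libraries. Bst2 (tetherin) rose from -0.37 and -0.56 to 0.68 and 1.01 (adjusted p = 0.0207) and Ifi27l2a from -0.54 in both oil libraries to 2.38 and 2.37 (7.52-fold, adjusted p = 0.00647). Among regulators, Irf7, the transcription factor that amplifies interferon production, lay at -0.19 and -0.61 against 2.15 and 2.48 (6.56-fold, adjusted p = 0.022), and Usp18, which removes Isg15 and restrains the receptor, at -0.11 and -0.73 against 2.34 and 2.32 (6.74-fold, adjusted p = 0.0208). Zbp1, Ifitm3, Xaf1, Dhx58 and Irf9 were called as well, within the called members' range of 0.73 to 3.33, beside the Oas genes below. Over all 40 members the changes ran from -0.16 to 4.52, the highest in a gene that was not called. Ifit3 (2.60 ± 0.51, adjusted p = 0.0688) and Ifit2 (-0.14 ± 0.22, adjusted p = 0.81) were not called. Of the 18 calls, Oasl2, Rsad2 and Ifi27l2a were kept in every fit without 1 library. In the same libraries the median of the T and NK cell genes given below was higher after tamoxifen (0.27 in both libraries against -0.58 and -0.82) and that of the B cell genes lower (1.79 and 0.57 against 3.02 and 2.12), and their part in these values was not tested. The count was 3 without Ezh1-null tamoxifen replicate 2, 4 without replicate 1, 8 and 5 without oil replicates 1 and 2, 14 when an Ezh1-present oil library was left out and 11 for an Ezh1-present tamoxifen library.

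The 2-5-oligoadenylate synthetases, which activate RNase L against viral RNA, lie side by side on chromosome 5, and 6 of the 8 tested there were called. Oas3 rose from 0.05 and -0.05 to 1.96 and 2.01 (1.98 ± 0.17, adjusted p = 0.00884), Oas2 from -0.05 and 0.18 to 1.68 and 1.65, Oas1g from -0.25 and 0.14 to 1.66 and 1.81 and Oas1a from -0.19 and 0.01 to 1.03 and 1.11. Oas1b and Oas1h rose too, by 0.88 ± 0.13 and 3.93 ± 0.61, while Oas1e and Oas1c were not called. The Oas1 genes are close copies, and no label says how reads shared by them were counted, so single members are uncertain. The unlinked Oasl2 rose from -0.54 and -0.93 to 2.23 and 2.86 (9.71-fold, adjusted p = 0.00928).

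Of 17 interferon-inducible GTPases, which attack vacuoles of intracellular pathogens, 5 rose (3.1% of all rows). In 16, both tamoxifen values lay above both oil values (24.5% of all rows), and the list median was 1.33. Gbp6 went from -0.53 and -0.74 to 2.09 and 2.30 (7.12-fold, adjusted p = 0.0168), Igtp from -0.36 and -0.16 to 0.79 and 0.99 (adjusted p = 0.0246), and Gvin1, Gbp5 and Gbp7 by 0.91 to 0.94. None of the 5 was kept in every fit without 1 library, and 0 of them were called without any 1 Ezh1-null library. Gbp5 and Gbp7 are neighbours and close relatives. In the MHC class I group B2m, the light chain, was the 1 call of 22 (-0.01 and -0.13 against 0.54 and 0.51, adjusted p = 0.0391), with the heavy chains H2-D1 (0.76 ± 0.13, adjusted p = 0.0554) and H2-K1 (0.80 ± 0.17, adjusted p = 0.0783) just outside. None of 11 MHC class II genes was called by limma. Cxcl10, a chemokine that interferons induce, was called among 43 chemokine and receptor genes, from -0.63 and -0.13 to 1.91 and 1.57 (4.35-fold, adjusted p = 0.0321).

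Among 21 interferons, receptors and nucleic acid sensors, Ifnb1, the gene for interferon beta, was the 1 call. It lay at the floor in both oil libraries and 0.87 and 1.12 above it after tamoxifen (adjusted p = 0.0167), which is under 3 steps in every library, so no fold is given. The list median was 0.14.

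Of 30 targets of the tumour suppressor p53, 6 rose and 0 fell (3.1% and 0.299% of all rows), with a median of 0.46. Zmat3, an RNA-binding tumour suppressor, lay at -2.45 and -2.15 in oil and 0.57 and 1.36 after tamoxifen (9.57-fold, adjusted p = 0.00899). Plk2, a stress-responsive kinase, lay at -1.65 in both oil libraries against 0.10 and 0.52 (3.90-fold, adjusted p = 0.00849). Bbc3, which encodes the apoptosis inducer Puma, lay at -0.81 and -0.92 against 0.45 and 0.32 (2.38-fold, adjusted p = 0.00794). These 3 were called in every fit without 1 library, with adjusted p up to 0.045. Sesn2, Ccng1 and Pmaip1 (Noxa) rose by 0.90 ± 0.10, 0.74 ± 0.11 and 0.71 ± 0.10. Mdm2, the p53 ubiquitin ligase (0.22 ± 0.09, adjusted p = 0.286), and Bax, an apoptosis effector (0.49 ± 0.16, adjusted p = 0.206), were not called. Of 18 Bcl2 family genes 3 were called, all higher (3.1% of all rows): Bbc3, Pmaip1 and Bcl2l14. The survival genes Bcl2 (0.73 ± 0.27), Bcl2l1 (-0.04 ± 0.23) and Mcl1 (0.05 ± 0.10) did not pass.

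DNA replication genes shared a small shift. All 37 had changes below 0, from -0.51 to -0.08, and in 36 the tamoxifen values lay under both oil values (24.8% of all rows), with a median of -0.28 (-0.32 to -0.26 without any 1 Ezh1-null library). Mcm6, a subunit of the replicative helicase, was the 1 call, at 0.00 in both oil libraries and -0.48 in both tamoxifen libraries (-0.48 ± 0.08, adjusted p = 0.0488, lost in each fit without 1 library). Its partner Mcm2 stood at 0.03 and 0.01 against -0.38 and -0.31 (adjusted p = 0.101), and Mcm5, Mcm3 and Mcm4 at -0.28, -0.33 and -0.31. Of 32 mitosis genes 27 had changes below 0, but the median was -0.10 and 0 were called by limma. No member of the mitosis list had an unadjusted p under 0.05. Ribosome biogenesis genes (28, median 0.01) and oxidative phosphorylation subunits (45, median 0.03) had 0 calls by limma, and 1 and 0 of them had an unadjusted p below 0.05. Myc (-0.07 ± 0.24) and the other 10 genes of its network were not called. Fos, an immediate early transcription factor, rose from 0.57 and 0.65 to 1.71 and 1.93 (adjusted p = 0.0182).

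The label could be checked only in part, because centring removes the level of genes that are above the floor in every library. Kit, the gene of the c-kit receptor, was not at the floor in any of the 4 libraries, at 0.53 and 0.64 in oil and 0.25 and 0.38 after tamoxifen (adjusted p = 0.496). Of 30 stem and progenitor regulators and 9 primary granule genes, which mark early myeloid cells, 0 were called by limma, and Mpo, the myeloperoxidase gene, stood at 0.61 and 0.92 against 0.57 and 0.73. Markers of other marrow cells varied between libraries. For 19 B cell genes, the library medians were 3.02 and 2.12 in oil and 1.79 and 0.57 after tamoxifen, the median change was -1.11 (-1.49 to -0.60 without 1 Ezh1-null library) and 1 gene, Cr2, was called lower. For 21 erythroid genes the library medians were -0.03 and 0.93 against 0.24 and -0.07 with 0 calls, and for 19 late granule genes 0.87 and 1.54 against 1.86 and 0.39 with 0 calls. For 29 T and NK cell genes they were -0.58 and -0.82 against 0.27 and 0.27, and 2 were called higher: Gzmb, a cytotoxic granule protease (at 1.35 and 2.53 after tamoxifen, with 1 oil library at the floor), and Tbx21, a T cell and NK cell transcription factor (-1.79 and -1.90 against 0.44 and -0.08). In 2 of the 29, Cd8b1 and Gzmk, both oil libraries were at the floor. Among 11 eosinophil genes, the library medians were -0.14 and 0.08 against 1.15 and 1.71. The ribonuclease Ear6 rose from -5.45 and -5.24 to 0.98 and 1.71, the largest rise above the floor (6.69 ± 0.84, limma adjusted p = 0.0246). Alox15, a lipoxygenase, rose by 1.41 ± 0.19. Both calls were lost in each fit without 1 Ezh1-null library. The part of these cells in the other results was not tested.

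Among 23 monocyte and macrophage genes Fcgr1, an antibody receptor, and Ly6c2, a surface protein with close copies, rose by 2.28 ± 0.33 and 0.64 ± 0.11. Of 13 dendritic cell genes Klk1 and Bst2 rose and Itgax fell, of 13 mast cell and basophil genes Il4 fell, and of 22 stromal and endothelial genes Nes, which encodes nestin, rose (2.08 ± 0.18). Megakaryocyte genes (18), myeloid transcription factors (21), growth factor receptors (20) and glycolysis enzymes (19) had 0 calls by limma, while 3, 4, 3 and 2 of them had an unadjusted p below 0.05. In the stromal and endothelial list 18 changes lay above 0 and 3 below, with library medians of -1.12 and -0.53 in oil against -0.25 and -0.23. In the megakaryocyte list 14 lay above 0 and 4 below, with library medians of -0.49 and -0.29 against 0.20 and -0.04. The list medians were 0.75 and 0.67. The part of both cell types in the other results was not tested.

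Falls were fewer. Itgax, the integrin CD11c of dendritic cells, fell from -0.84 and -0.57 to -2.38 and -2.47 (3.30-fold lower, -1.72 ± 0.13, adjusted p = 0.00701), and stayed called without any 1 library (highest 0.0498). Il4, a cytokine of basophils and T cells, fell from 1.80 and 1.00 to -0.42 and -0.39 (-1.81 ± 0.26, adjusted p = 0.0343). Il17re, a receptor of interleukin signals (-1.44 ± 0.23), G6pc, the glucose-6-phosphatase (-1.44 ± 0.16), Lin7b, a scaffold of cell junctions (-1.21 ± 0.15), and Ap1m2, an adaptor of epithelial sorting (-1.15 ± 0.19), were also lower, each at least 2-fold. Cr2, the complement receptor of B cells, fell to the floor from 2.89 and 2.04 above it (adjusted p = 0.0393), within 3 steps in oil, so no fold is given. Of the falls listed after Itgax so far, none stayed called in every fit without 1 library. Ap1m2 and Cr2 were called in no such fit. The predicted transcript A230087F16Rik, singled out after its values were seen, fell furthest, from 6.56 and 6.15 above the floor to the floor in both tamoxifen libraries (at least 12.7-fold lower), and it was at or near the floor in the Ezh1-present libraries. Of the 54 lower calls, 14 lay at the floor in both tamoxifen libraries and 2 of these exceeded 3 steps in oil. In 7, among them Cdh9, Gpr112, Kcnv2, Tmem169 and Tmem63c, each oil library held exactly 1 step and the other 6 libraries were at the floor, and all 7 such rows among those tested were called, as were all 3 of the mirror kind after tamoxifen. Such calls rest on 1 step, the smallest common normalized count though not the smallest seen, and on libraries that cannot vary.

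Rises from the floor were more frequent than falls to it. Of the 560 higher calls, 90 lay at the floor in both oil libraries, of which 51 exceeded 3 steps per oil library, 12 had 1 oil library at the floor, and 458 had none by the tie rule. In 23 of these 458, 1 oil library was inferred at the floor because the other lay 1, 2 or 3 steps above it. Among all tested rows, 397 went from the floor in both oil libraries to above it in both tamoxifen libraries, and 67 went the other way. Beside the genes above, Lrfn3, a synaptic adhesion protein (at least 7.25-fold), Cnpy1 (at least 5.88-fold), Dmbx1, a homeobox gene of the midbrain (at least 4.44-fold), and Cyp26a1, which degrades retinoic acid (at least 4.34-fold), came from the floor in both oil libraries. Cadm3, a cell adhesion molecule, was measured above the floor throughout and rose from -2.44 and -2.55 to 2.25 and 1.99 (24.5-fold, adjusted p = 0.00445), as was Rab15, a GTPase of endosomal recycling, from -4.07 and -5.19 to 0.50 and 0.23 (4.99 ± 0.37, adjusted p = 0.00701). Scara3, Ttc9, Echdc2 and Ccdc46 rose by 4.96 to 6.13, each with 1 oil library inferred at the floor.

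Some called genes were neighbours. Grouping calls whose starts lie within 100 kb placed 117 of the 614 called genes in 48 clusters, 44 of them all higher, 0 all lower and 4 mixed, where 91.2% of all calls were higher. Whether calls lie closer together than other tested genes was not tested. On chromosome X (135993820 to 136215513), Arxes2, Arxes1, Bex2, Bex4, Tceal8 and Bex1 rose, 6 of 8 tested genes, with Bex2, an adaptor protein of neurons and leukaemia cells, going from -2.42 and -2.80 to -0.42 and -0.31 (adjusted p = 0.00701). Arxes1 came from the floor in both oil libraries (at least 2.32-fold) and resembles Arxes2 closely, so their separation is uncertain. On chromosome 7 (144838612 to 144939925) Fgf3, Fgf15 and Ccnd1 rose, and Oraov1 between them did not. On chromosome 14 all 3 tested genes of a span rose: Scara3, Clu, which encodes the chaperone clusterin (-2.10 and -2.44 against -0.52 and -0.56), and Gulo, the vitamin C enzyme (at least 2.41-fold). Pou6f1, Smagp and Galnt6 on chromosome 15 were 3 of 7 tested genes in their span, with Dazap2, Bin2 and Cela1 among those not called. On chromosome 11, Dusp3, Mpp2 and Nags were 3 of 5 (not Mpp3 or Cd300lg), and Slc13a5, Xaf1 and Fbxo39 were 3 of 4. On chromosome 4 all 4 tested genes of a span were called, Agrn, Isg15 and a pair of predicted genes. By chromosome, the share of tested rows called higher was highest on chromosomes 19 (5.33%) and 15 (5.17%) and lowest, apart from chromosome Y, on 16 (1.58%). Where genes overlap or face each other on opposite strands, their reads may not be separable, since no label states the strand setting of the counting.

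**Figure D4:**
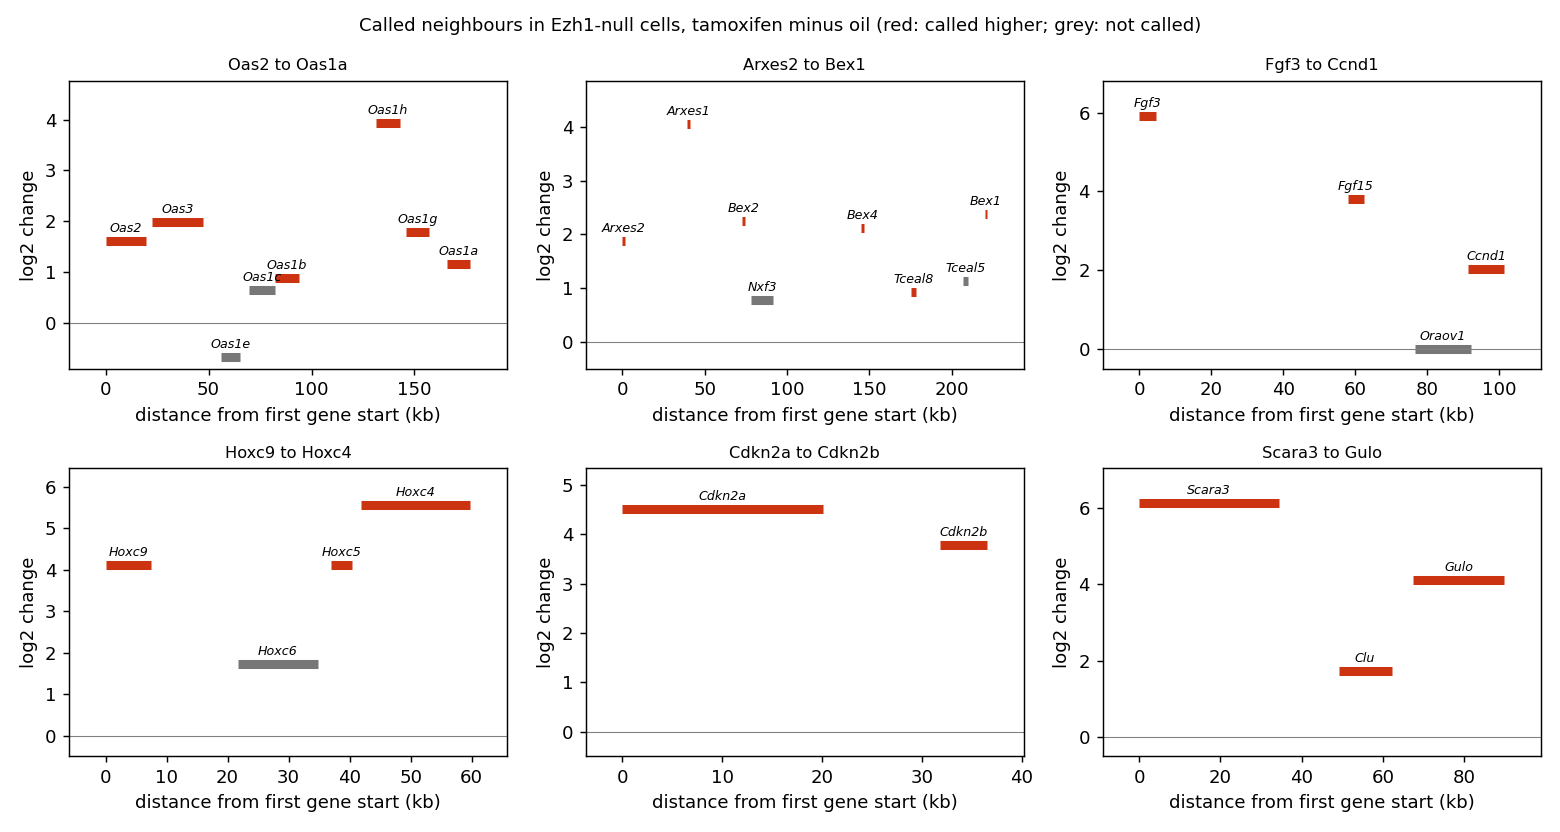
Log2 change, tamoxifen minus oil in Ezh1-null cells (y axis), against distance from the start of the first gene in kb (x axis) for 6 groups of neighbours, with called genes in red and others in grey. Oas1e and Oas1c lie uncalled within the Oas group, and Oraov1 lies at about 0 between Fgf15 and Ccnd1.

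The same contrast in Ezh1-present cells gave 163 calls (0.903%), 115 higher and 48 lower. Of the 560 genes called higher without Ezh1, 433 (77.3%) had a change above 0 with Ezh1 present, against 51.9% of all rows, with a median of 0.49, and 40 were called there, which is 7.14% of the 560 and 34.8% of the 115. Both contrasts use separate libraries but 1 shared spread estimate. The difference between the tamoxifen changes was called for 86 rows (0.476%), 58 with the larger value without Ezh1 and 28 with the smaller. Of the 560 higher calls 46 passed this test; for the rest a difference was not shown. Cdkn2a had a difference of 2.20 (adjusted p = 0.066), Igf2bp1 of 4.96 (adjusted p = 0.078) and Bbc3 of 1.05 (adjusted p = 0.068), so none of them passed. No interferon-stimulated gene or p53 target was called for the difference by limma, with list medians of 1.27 without and 0.64 with Ezh1 for the former and 0.46 and 0.17 for the latter.

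Genes that passed the test of the difference included Fat1, which rose by 1.34 without Ezh1 and fell by 0.94 with it (difference 2.29, adjusted p = 0.014), and Mlxipl, a glucose-sensing transcription factor that rose from -3.95 and -4.07 to 0.06 and -0.18 (3.95 ± 0.16, against 0.49 ± 0.16 with Ezh1, adjusted p = 0.014 for the difference of 3.46). Neither has a library at the floor by the tie rule. Col13a1 (difference 4.90), Chn1 (4.44), Car11 (4.03), C2cd4c (3.97), Otx2 (3.83) and Fgf15 (3.80) came from the floor in oil, where the spread is held down. In the other direction, Dntt, the lymphoid terminal transferase, lay at 3.61 and 3.77 in oil and 2.20 and 1.52 after tamoxifen without Ezh1 (-1.83 ± 0.34, adjusted p = 0.0603) and rose by 3.38 with Ezh1 (difference -5.21, adjusted p = 0.037). B cell genes, of which Dntt is one, had a median of -1.11 without Ezh1 and 1.05 with it, erythroid genes -0.27 and 2.81, and T and NK cell genes 0.96 and 2.35, and their part in the differences was not tested. In a fit of the 15517 rows with no library at the floor by the tie rule, added after seeing the data, 6 rows were called for the difference, all among the 86. That rule does not see 1 library alone at the floor, so such rows stayed in this fit. In each fit that left out 1 library, most of the 86 were no longer called, and some rows outside the 86 were called.

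**Figure D5:**
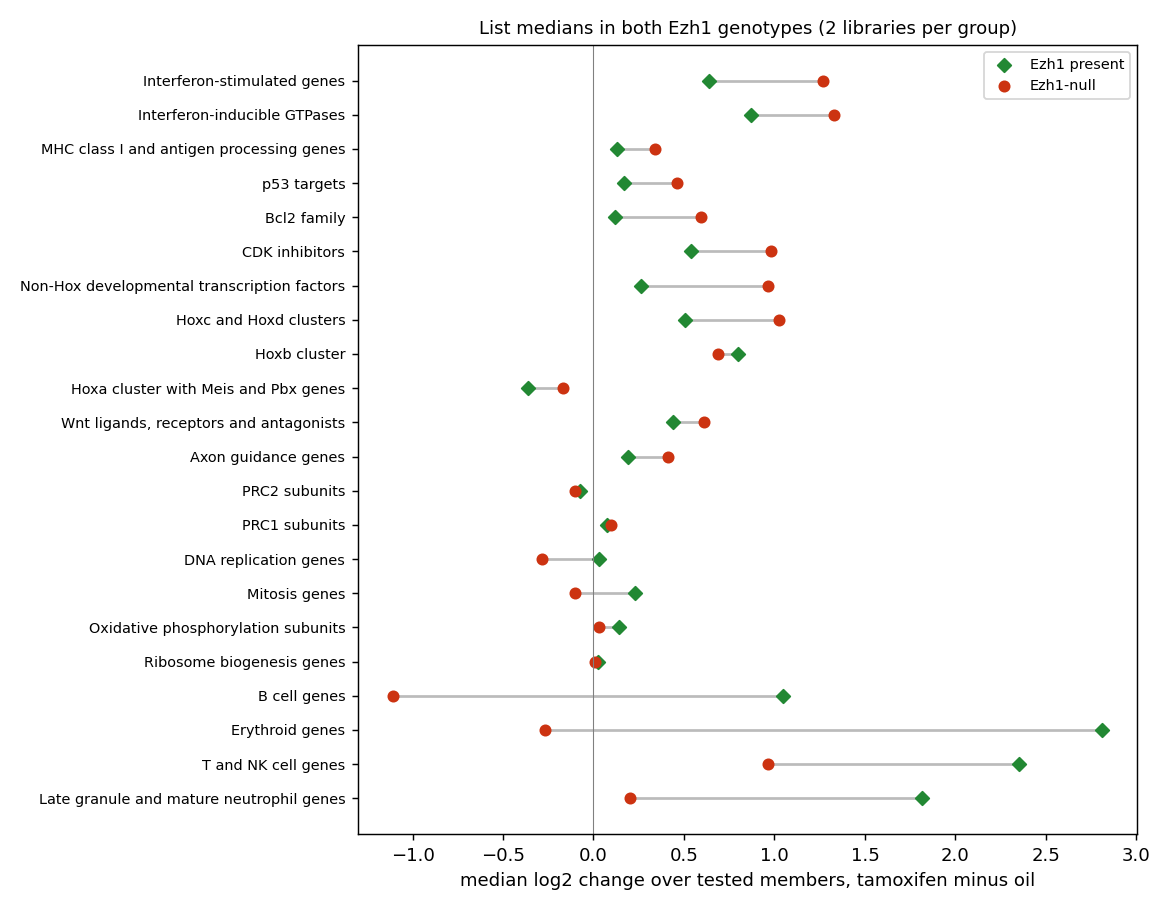
Median log2 change, tamoxifen minus oil (x axis), over the tested members of 22 gene lists, in Ezh1-null cells (red circles) and Ezh1-present cells (green diamonds), 2 libraries per group. Interferon-stimulated genes have 1.27 and 0.64, DNA replication genes -0.28 and 0.03, and erythroid genes -0.27 and 2.81.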

How the data were processed

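Libraries were made with a TruSeq kit from total RNA, per the labels' protocols, and the genome build was mm10, per the submitters' processing notes. For the aligner, counter, scaling and strand setting, the entry is: not given in the sources used here. The authors deposited log2 normalized values centred on the gene median over 8 libraries, after a percentile filter from 20 to 100, per the file headers. The deposited table also holds each fold change as a ratio and as a signed fold, another number in which a fall is minus the inverse ratio; these were used only for a check of the columns. No counts are in the table used, so total depth is unknown.

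The floor of a row was taken as its minimum where at least 2 libraries tied there. Rows in which 2 or more libraries exceeded the floor were fitted with limma 3.58.1 in R 4.3.3 on the 8 libraries together, each group having 1 coefficient, with no pseudocount beyond the authors' floor, and p-values were adjusted by Benjamini-Hochberg over 18051 rows. Residual degrees of freedom numbered 4. An exact permutation test of 2 against 2 libraries cannot go below 0.333. A lower limit of a fold was set against 3 steps per library. Where 1 oil library alone was lowest and the other lay 1, 2 or 3 steps above it (tolerance 0.01 step), it was inferred to be at the floor. Since not all low values were whole steps, a floor inferred in this way is uncertain. The fit was tested on simulated data. Tables were joined with pandas 2.3.3 in Python 3.11.15, and figures drawn with matplotlib 3.10.9.

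Named genes were Ezh1 and Ezh2, the 12 largest rises and falls above the floor, the 8 highest from or to the floor, up to 6 called and the first 4 members of each list, up to 8 groups of neighbours within 100 kb, and the 8 largest differences in each direction; predicted genes were counted. The members and lists were chosen with earlier results of these data known. Promoters are from RefSeq, GRCm38.p6, and matched 76% of tested rows. A second deposited table with a stricter fold limit was not used here. Alternatives covered the filter, normalization, trend and robust settings, the libraries fitted, the replicate block and each library left out. Results that need items withheld for evaluation are not reported here.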

Additional observations from a re-analysis of the deposited data

Results flagged for a closer look

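The tamoxifen change differed between Ezh1-null and Ezh1-present cells for 86 rows by the limma test of the difference itself. Among the named genes, the difference (log2, Ezh1-null minus Ezh1-present) was above 0 for Col13a1 (4.90), Chn1 (4.44), Car11 (4.03), C2cd4c (3.97), Otx2 (3.83), Fgf15 (3.80), Mlxipl (3.46), Cnfn (3.31) and Fat1 (2.29). It was below 0 for the lymphoid gene Dntt (-5.21), Rnase10 (-4.39), Il4 (-3.76), Gpr44 (-3.76), Il17re (-3.13), Itga9 (-2.35), Tll1 (-1.85), Itgax (-1.74), Rxfp1 (-1.72) and Cyp2b9 (-1.15). It was -1.25 for each of Tmem63c, Cdh9, Kcnv2, Tmem169 and Gpr112, in which the oil libraries without Ezh1 held 1 step and the other 6 libraries were at the floor. Of the 58 rows with a larger value without Ezh1, 46 were called higher there, and of the 28 with a smaller value 15 were called lower there. This overlap is partly built in, since the difference contains the change without Ezh1 and shares its libraries and spread estimate.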

How the results depend on the processing

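The 614 calls without Ezh1 became 240 with only the Ezh1-null libraries fitted, 176 to 469 with 1 library left out, and 457 to 623 under another filter, normalization, trend or robust setting. The 86 calls for the difference became 14 with at least 4 libraries above the floor, 6 with no library at the floor (added after seeing the data), 37 after quantile normalization, 8 with a trend, and 17 to 98 with 1 library left out. With the replicate number as a block within genotype both counts were 0 (2529 and 2170 rows at an unadjusted p under 0.05). Same-numbered libraries did not deviate together across genes (correlations of -0.0624 without and -0.0387 with Ezh1). The labels do not state whether the numbers pair the samples. These correlations cannot decide it, since paired samples need not share a visible deviation. No named value changed sign as a call. The counts above are of all rows called in a fit, not of rows kept. Of the 240, 127 were among the 614. The 14, 6 and 8 rows were all among the 86, as were 27 of the 37. The fit that gave the 6 left out floor rows by the tie rule, which does not see 1 library alone at the floor. In each fit without 1 library, most of the 86 were no longer called. A library left alone in its group was assumed to vary like the others. Fewer samples or rows enter several of these fits, and otherwise the cause was not tested. Low genes are limited by the step size, and the depth is unknown.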
